A study of Mus musculus with 8 samples.

Results

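Voltage-gated sodium channels were described here through 8 genes: the pore-forming alpha subunit genes Scn1a, Scn2a, Scn3a, Scn8a and Scn9a, and the accessory beta subunit genes Scn2b, Scn3b and Scn4b. They were found by their GENCODE M21 symbols among the 55450 genes of the count tables. Of the 8, 7 passed the filter on low counts and were tested, and Scn2b was at 0 in every library. Scn4b fell in the mutants, Scn3a and Scn3b rose, and Scn1a, Scn2a, Scn8a and Scn9a did not pass the test.

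The study asked how loss of thyroid hormone signalling within the GABAergic, inhibitory neurons of the cortex alters their gene expression. Nuclear RNA was taken from fluorescent nuclei sorted from the cortex of juvenile mice, 1 cortex a library, with the strain, sex and day of age not given in the sources used here. The 4 control libraries came from Thra+/+ mice and the mutant libraries from Thra+/AMI mice. The AMI allele encodes a thyroid hormone receptor with dominant-negative action. In the mutants a Cre driver limited to GABAergic neurons switched this allele on, and the same driver switched on the nuclear fluorescent protein by which the nuclei of both groups were sorted. The sort takes every GABAergic subtype together, so fewer nuclei of a subtype and less RNA per nucleus cannot be told apart. Nuclear RNA also holds unspliced transcripts, and channel protein was not measured.

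Alpha subunits form the sodium-selective pore that opens on depolarization and carries the rising phase of the action potential, and beta subunits are single-pass membrane proteins with an immunoglobulin-like domain that tune gating and help to place the channel. In the rodent forebrain, Scn3a and Scn3b are known as genes of the immature brain, while Scn1a, Scn8a and Scn4b gain ground after birth. Scn1a is the alpha subunit on which fast-spiking, parvalbumin-positive interneurons depend most, and loss of 1 of its copies causes the epilepsy known as Dravet syndrome.

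Total counts ran from 10747169 to 13804734 a library. The table labelled mutant 10 held the same count as that of mutant 7 at all 21975 genes with a count among 55220 compared, so both were used as 1 library and the comparison was 4 controls (1 to 4) against 3 mutants (6, 7 and 8). Values by library are given in that order. Among the controls, control 1 and control 4 differed by gene length. The log2 ratio of control 1 to control 4 had a median of −0.73 over tested genes longer than 100 kb and of 0.47 over those shorter than 10 kb. Other pairs of controls were not compared by gene length. The targeted gene, Thra, measured 107.8, 125.3, 118.6 and 105.3 CPM (counts scaled to the library total, after TMM factors) in the controls, and 77.5, 96.1 and 88.5 CPM in the mutants. Every mutant lay below every control, by −0.39 on the log2 scale (SE 0.11), which did not pass the test at an adjusted p of 0.0543. These counts add the normal and the mutant allele, so they do not show which allele a library carried. Over the whole table, 1549 of 16448 tested genes were called at an adjusted p under 0.05 (9.42%), of which 787 were lower in the mutants (4.78%) and 762 higher (4.63%). The groups did not overlap at 22% of tested genes.

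A property of the tables bears on Scn2b and Scn9a, and on Gm13629, a noncoding gene beside Scn1a. All 13127 genes whose span lies wholly inside that of other genes, on either strand, held 0 counts in all 7 libraries, as did the 6263 of them that lie inside genes of the opposite strand only. Of the 42323 genes with some span of their own, 36.0% were at 0. Exons did not decide it: of 264 genes whose exons all lie inside other genes but whose span reaches outside, 49 were at 0 (18.6%). Bases shared by the spans of overlapping genes therefore appear to add to neither gene, introns are counted, and a 0 in a nested gene gives no limit on its expression.

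Scn4b carried the steepest change of the 7 tested genes. Its beta subunit is linked to the pore by a disulfide bond and bears the cytoplasmic tail held to block the open channel and give resurgent sodium current, a feature of fast-firing neurons. Scn4b (ENSMUSG00000046480.6, GRCm38 chr9:45138395-45154152, plus strand) measured 15.2, 6.0, 12.5 and 10.7 CPM in the controls, and 1.2, 3.2 and 3.8 CPM in the mutants. Every mutant lay below every control, and the controls spread widely, with control 2 nearest to the mutants. The counts behind these values were 192, 79, 164 and 133 in the controls and 15, 35 and 49 in the mutants. The mean was 11.1 ± 3.88 CPM (SD, n = 4) against 2.73 ± 1.39 CPM (SD, n = 3), a fitted fall of 4.06-fold (log2 fold change −2.02, SE 0.39, edgeR adjusted p = 0.00625). The call held when each library was left out in turn, with log2 fold changes from −2.35 to −1.65.

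The promoter of Scn4b is shown because it is the one RefSeq promoter held here for a gene of the 3 that passed the test. RefSeq promoters on GRCm38.p6 were found for 6 of the 8 genes, none for Scn3a or Scn3b. The first line gives the 250 bases before the RefSeq start of Scn4b, at chr9:45138374-45138623, plus strand. The GENCODE M21 span of Scn4b starts earlier, at 45138395, so most of these bases lie inside that span. The second gives the 250 bases before the downstream Scn8a start, at chr15:100936021-100936270, plus strand, and the third 26 bases just inside the start of Scn1a, at chr2:66440808-66440833, minus strand. Those of Scn8a and Scn1a are shown as the only promoters of the 6 genes that held AGGTCA, the hexamer known to be bound by thyroid hormone receptors, marked in capitals.
Scn4b: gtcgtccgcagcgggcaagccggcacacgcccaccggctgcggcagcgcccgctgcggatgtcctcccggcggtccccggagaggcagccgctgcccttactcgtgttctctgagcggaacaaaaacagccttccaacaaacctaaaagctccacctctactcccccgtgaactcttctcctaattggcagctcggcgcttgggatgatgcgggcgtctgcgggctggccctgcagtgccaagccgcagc
Scn8a: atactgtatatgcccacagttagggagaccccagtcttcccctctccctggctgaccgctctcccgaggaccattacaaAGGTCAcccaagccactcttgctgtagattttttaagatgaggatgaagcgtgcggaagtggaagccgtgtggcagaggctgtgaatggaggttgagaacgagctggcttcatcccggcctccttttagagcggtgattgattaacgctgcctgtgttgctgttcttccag
Scn1a: aagtctgtctAGGTCAagtgtaggag
The Scn4b sequence is rich in G and C (66.0%) and holds 23 CG pairs, against a median of 6 CG pairs in the same stretch of all 32851 promoters in the table. AGGTCA was searched on both strands of the 300 bases from 250 before each start to 50 after it. It was found in 2 of 8 promoters of the 6 genes, and 16.3% of all promoters held it. A direct repeat of this hexamer with 4 bases between, allowing 2 mismatches, was found for Scn1a alone among them, and 3.02% of all promoters held one. These are matches of letters, and receptor binding was not measured.

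Scn3b moved the other way. Its beta subunit associates with the alpha subunit without a covalent bond and is the beta subunit most prominent in the embryonic brain. Scn3b (ENSMUSG00000049281.16, chr9:40269217-40291618, plus strand) measured 76.7, 68.5, 82.8 and 57.8 CPM in the controls, and 119.3, 150.0 and 134.1 CPM in the mutants. The lowest mutant lay well above the highest control. The mean was 71.5 ± 10.8 CPM (SD, n = 4) against 134 ± 15.3 CPM (SD, n = 3), a rise of 1.88-fold (log2 fold change 0.91, SE 0.13, edgeR adjusted p = 0.00119).

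The third beta gene gave no value. Scn2b, whose protein is bound by a disulfide bond as that of Scn4b is, lies at chr9:45117782-45130070 on the plus strand. All of its span is inside the span of Gm10684, a long noncoding RNA gene on the opposite strand, as the map of the Scn2b and Scn4b locus shows. Its neighbour Scn4b starts 8.33 kb beyond its end. Scn2b held 0 counts in all 7 libraries, Gm10684 held 41 counts over all 7 and Scn4b held 667. Since nested genes as a class were at 0, Scn2b was not measured in these tables.

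**Figure D1:**
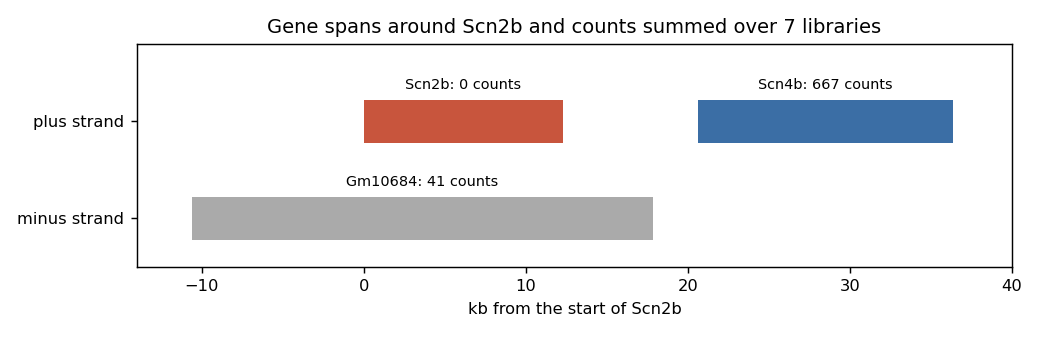
Map of the Scn2b and Scn4b locus on chromosome 9, drawn to scale as distance in kb from the start of Scn2b, with genes of the plus strand and of the minus strand on separate rows and counts summed over the 7 libraries. Scn2b lies wholly inside Gm10684 and has 0 counts, while Scn4b lies beyond it and has 667.

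Scn3a was the one alpha gene of the 5 called in the edgeR fit. It encodes a channel that is high in the prenatal brain and low in the adult rodent cortex. Scn3a (ENSMUSG00000057182.14, chr2:65457118-65567627, minus strand) measured 101.6, 124.6, 108.1 and 100.6 CPM in the controls, and 181.4, 204.3 and 195.2 CPM in the mutants. The 2 groups were tight and well apart. The mean was 109 ± 11.1 CPM (SD, n = 4) against 194 ± 11.5 CPM (SD, n = 3), a rise of 1.78-fold (log2 fold change 0.83, SE 0.11, edgeR adjusted p = 0.000682). Scn3a ranked 185 by p among all tested genes, Scn3b 245 and Scn4b 566. Leaving out each library in turn kept the call of Scn3a and of Scn3b, with log2 fold changes of 0.80 to 0.90 and 0.82 to 0.99.

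Scn1a and Scn8a lay lower in every mutant than in every control, without passing the test. Scn1a (ENSMUSG00000064329.13, chr2:66270778-66440840, minus strand) measured 473.4, 554.9, 499.1 and 560.3 CPM in the controls, and 405.3, 392.2 and 349.1 CPM in the mutants. Its log2 fold change was −0.45 (SE 0.14, adjusted p = 0.0616). Scn8a, which encodes the main channel of the mature axon initial segment and node of Ranvier (ENSMUSG00000023033.14, chr15:100869858-101045938, plus strand), measured 382.5, 479.7, 468.7 and 502.7 CPM in the controls, and 377.9, 318.8 and 321.5 CPM in the mutants. Control 1 and mutant 6 lay close together, so the gap between groups was narrow. Its log2 fold change was −0.43 (SE 0.14, adjusted p = 0.0856). These 2 calls turned on the fit: both genes were called with DESeq2 (adjusted p 0.00344 for Scn1a and 0.0203 for Scn8a) and with an offset for gene length (0.00291 and 0.00267). Leaving out control 1 gave 0.0196 and 0.0151, while leaving out control 4 gave 0.0363 for Scn1a alone. Of the 7 edgeR fits without 1 library, 2 called Scn1a and 1 called Scn8a, with adjusted p up to 0.270 and 0.326. Of the 10 other alternatives, 5 called Scn1a and 4 called Scn8a. Without controls 1 and 4 together, the values were 0.00134 and 0.000819, and Scn3a, Scn3b and Scn4b were again called.

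Scn2a, the channel of the immature initial segment and of unmyelinated axons (ENSMUSG00000075318.12, chr2:65620771-65767447, plus strand), measured 266.3, 326.7, 312.1 and 349.2 CPM in the controls, and 360.1, 366.2 and 359.9 CPM in the mutants. The mutants lay just above the highest control, and the log2 fold change of 0.21 (SE 0.13) had an adjusted p of 0.394. Scn9a, best known from pain-sensing neurons (ENSMUSG00000075316.11, chr2:66480080-66634962, minus strand), measured 50.4, 57.2, 56.0 and 71.8 CPM in the controls and 57.6, 64.8 and 53.9 CPM in the mutants. The groups overlapped, with a difference of 0.00 on the log2 scale (SE 0.13, adjusted p = 0.993). Of the Scn9a span, 42.8% is shared with other genes, nearly all of it with Gm13629 of the opposite strand. Of its exon bases, 64.4% lie in other genes. Scn9a was the 1 tested member of 7 whose groups overlapped, where 22% of all tested genes had groups apart, and 3 of 7 were called where 9.42% of all were.

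**Figure D2:**
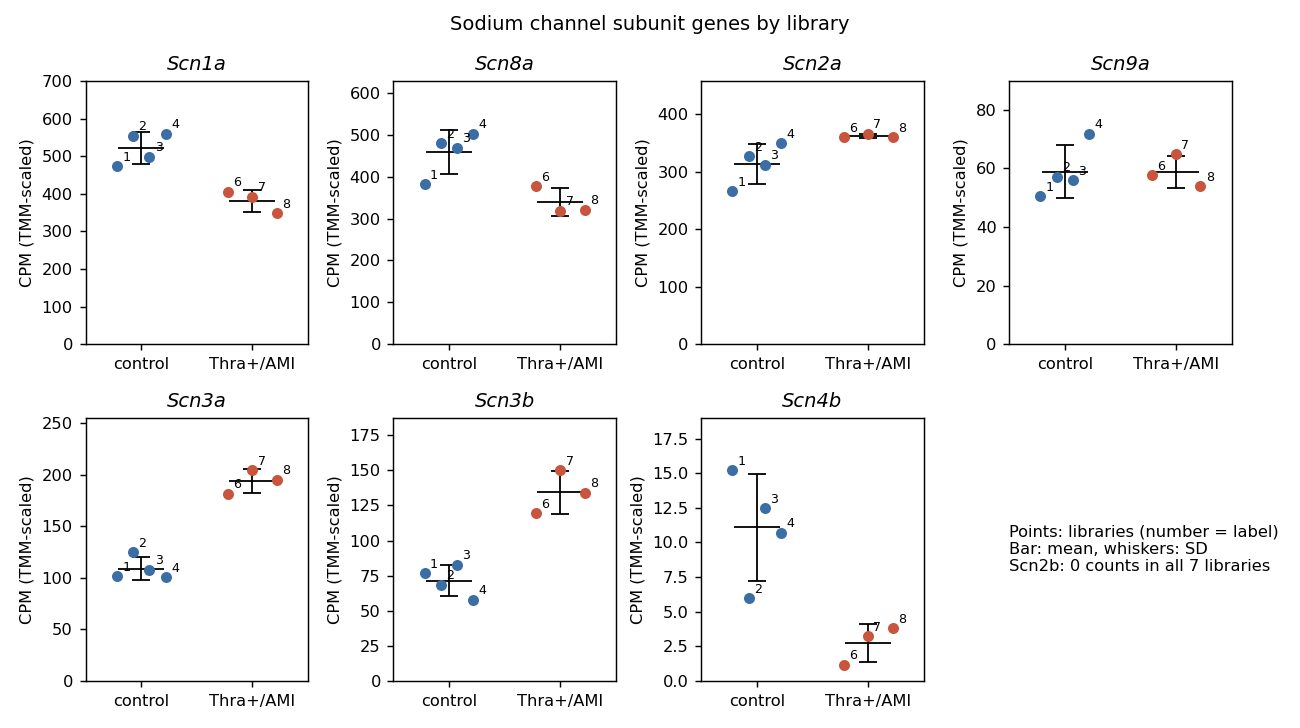
Level of each of the 7 tested genes by library, in TMM-scaled CPM on a linear axis from 0, with a numbered point for each of the 4 controls and 3 mutants, a bar at the group mean and whiskers of 1 SD. Scn3a and Scn3b are higher and Scn4b lower in all 3 mutants, Scn1a and Scn8a are lower by less, and Scn9a overlaps.

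**Figure D3:**
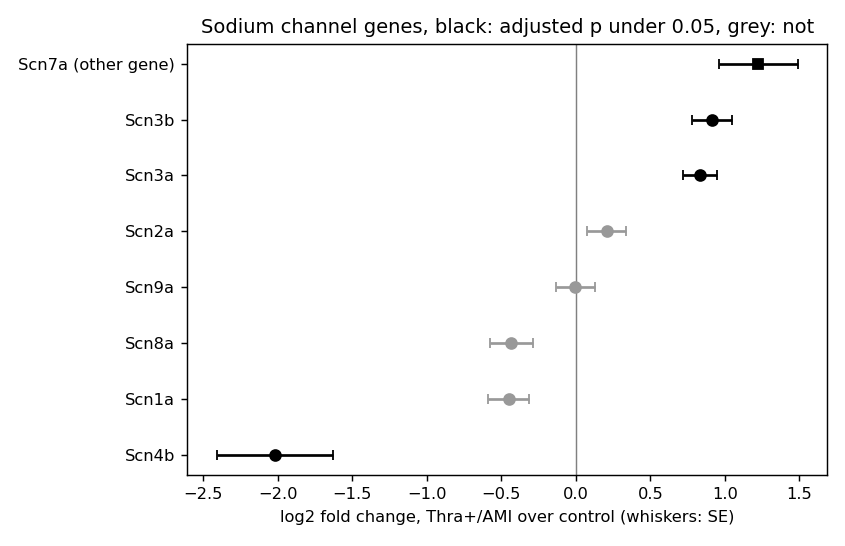
Log2 fold change of mutant over control for the 7 tested genes (circles) and for Scn7a (square), with whiskers of 1 SE from the edgeR fit, in black where the adjusted p is under 0.05 and in grey otherwise. Scn4b stands at −2.02, Scn3a at 0.83 and Scn3b at 0.91, and Scn9a at 0.00.

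Levels were set between genes only per length. In CPM per kb of merged exon, the order in the controls was Scn1a at 46.8 ± 3.82, Scn8a at 29.1 ± 3.33, Scn2a at 24.6 ± 2.75, Scn3b at 13.1 ± 1.98, Scn3a at 8.73 ± 0.89, Scn9a at 4.61 ± 0.71 and Scn4b at 2.22 ± 0.78 (SD, n = 4). Only Scn8a and Scn2a had ranges that overlapped among neighbours in this order. In the mutants, on the same scale, Scn1a stayed first at 34.3 ± 2.64, followed by Scn2a at 28.4 ± 0.28, Scn3b at 24.6 ± 2.81, Scn8a at 21.5 ± 2.11, Scn3a at 15.5 ± 0.92, Scn9a at 4.60 ± 0.43 and Scn4b at 0.55 ± 0.28 (SD, n = 3). There Scn3b and Scn8a overlapped. Of Scn9a exon bases, 64.4% lie in other genes, so its level per kb of exon may be too low. Since the counts appear to take in introns, the order was also read per kb of the span that no other gene shares. On that scale Scn1a (3.30) and Scn3b (3.28) led in the controls and Scn3b (6.18) in the mutants, where Scn2a (2.47) and Scn1a (2.42) followed. Per kb of own span, Scn8a, Scn2a, Scn4b and Scn9a changed places in the order of the controls as well. Per kb of genomic span or of coding length, Scn3b came before Scn1a in the controls, with overlapping ranges, so Scn3a alone kept its place under every length.

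Within the 5 alpha genes, the make-up moved toward Scn3a and Scn2a. Of the summed level per kb of merged exon, Scn1a made 41.2 ± 1.11% in the controls and 32.8 ± 1.28% in the mutants, and Scn8a 25.5 ± 0.94% and 20.6 ± 1.57%. Scn3a made 7.69 ± 0.80% and 14.9 ± 1.20%, and Scn2a 21.6 ± 0.57% and 27.3 ± 1.02%. Scn9a, at 4.04 ± 0.36% and 4.41 ± 0.34%, was the 1 alpha gene whose shares overlapped. Per kb of span outside other genes, Scn9a made 6.81 ± 0.61% and 7.13 ± 0.54%, again with overlap. The summed CPM of the 5 genes was 1461 ± 138 in the controls and 1336 ± 52.0 in the mutants, and the groups overlapped. Ratios within a library do not use the library's total. The log2 ratio of Scn1a to Scn3a was 2.38, 2.32, 2.37 and 2.64 in the controls, and 1.32, 1.10 and 1.00 in the mutants, so that Scn1a exceeded Scn3a by 5.37-fold on average in the controls and by 2.20-fold in the mutants. Per kb of span outside other genes, these ratios were 3.26 and 1.34. The log2 ratio of Scn8a to Scn2a was 0.21, 0.25, 0.28 and 0.22 in the controls, and −0.24, −0.51 and −0.47 in the mutants. The controls lay within a narrow range above 0 and the mutants all below 0. The log2 ratio of Scn8a to Scn3a averaged 1.73 in the controls and 0.47 in the mutants, again with no overlap. A change of the length used shifts all libraries alike and leaves the difference between groups, which was −1.29 for the first ratio, −0.64 for the second and −1.27 for the third. These ratios describe the genes already given and carry no test of their own.

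**Figure D4:**
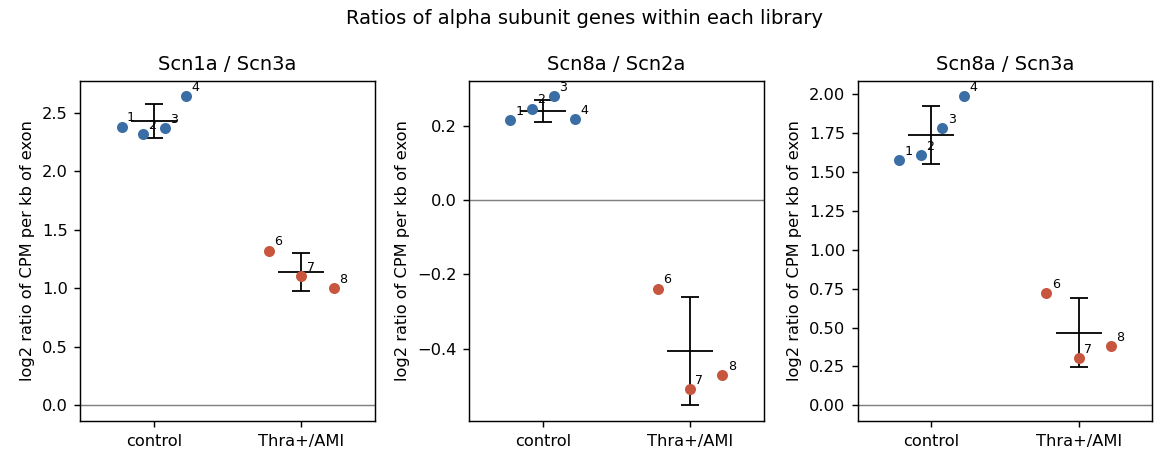
Log2 ratio of alpha subunit levels within each library, per kb of merged exon, for Scn1a to Scn3a, Scn8a to Scn2a and Scn8a to Scn3a, with a numbered point for each control and mutant, a bar at the mean and whiskers of 1 SD. All 3 ratios are lower in each mutant than in each control, with differences of means of −1.29, −0.64 and −1.27.

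Among sodium channel genes outside the 8, Scn7a rose. It encodes a channel-like protein known as a sensor of extracellular sodium, and it measured 1.5, 2.2, 2.8 and 3.1 CPM in the controls and 5.7, 5.3 and 5.8 CPM in the mutants (log2 fold change 1.22, SE 0.27, adjusted p = 0.0129). Its level was low, and the call was lost when mutant 6 or mutant 8 was left out, with adjusted p up to 0.0596. Scn4a, Scn10a and Scn11a were below the filter.

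Partners of the channels were read by list, where the median log2 fold change of all tested genes was −0.01. The axonal potassium channels that sit beside sodium channels held 3 of 7 called, all lower, where 4.78% of all tested genes were called lower. Kcna1, a low-threshold channel subunit of the juxtaparanode, measured 126.1, 106.4, 118.6 and 195.1 CPM in the controls and 47.4, 39.8 and 52.4 CPM in the mutants (log2 fold change −1.55, SE 0.20, adjusted p = 0.000434). Kcna2, which assembles with it, fell by 0.87 on the log2 scale (adjusted p = 0.00399), and Kcnab2, their accessory subunit, by 0.66 (adjusted p = 0.0336). Control 4 was the highest library for all 3 genes, and every mutant lay below every control. The Kcnab2 call was lost when control 3, mutant 6, mutant 7 or mutant 8 was left out (adjusted p up to 0.172) and with the glutamatergic covariate (0.0569). Kcnq3, a channel subunit of the initial segment, did not pass the test (log2 fold change −0.08, adjusted p = 0.898).

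Among 15 genes of the axon initial segment and node, 2 were lower and 2 higher, where 4.78% and 4.63% of all tested genes were. Cntn2, an adhesion molecule that holds the potassium channels at the juxtaparanode, measured 110.1, 107.4, 118.8 and 101.2 CPM in the controls and 51.3, 52.0 and 57.2 CPM in the mutants (log2 fold change −1.03, SE 0.11, adjusted p = 0.000102). Cntnap1, an adhesion molecule of the paranode, fell by 0.64 (adjusted p = 0.0176), a call lost without control 3, mutant 7 or mutant 8, with adjusted p up to 0.122. L1cam, an adhesion molecule of growing axons that binds ankyrin, rose by 0.86 (SE 0.10, adjusted p = 0.000287). Ptprz1, a receptor phosphatase that binds contactins and tenascins, measured 138.5, 146.8, 140.4 and 147.2 CPM in the controls and 452.6, 485.6 and 363.5 CPM in the mutants (log2 fold change 1.60, SE 0.13, adjusted p = 1.8e-05). The scaffold genes Ank3, Nfasc and Sptbn4, which hold the channels at the initial segment, did not pass the test, with log2 fold changes of 0.00, −0.26 and −0.28. Sptbn4 was called lower in 3 of the 10 alternatives: limma-voom, the gene length offset and the fit without controls 1 and 4. The edgeR fit without control 1 also called it (adjusted p = 0.0386). Nfasc was called lower with the edgeR gene length offset alone (adjusted p = 0.0378), and Ank3 in no alternative. Of the 12 cytosolic regulators edgeR called 0, with 2 at an unadjusted p under 0.05, while DESeq2 called 1 and limma-voom 2. Fgf11, an intracellular protein that binds the channel's tail, came nearest, at 0.46 (adjusted p = 0.062). Of the 7 splicing factors edgeR called 0, with 1 at an unadjusted p under 0.05, and DESeq2 and limma-voom called 1 each. Of the 4 leak channel genes tested, 0 were called by edgeR, DESeq2 or limma-voom, and 0 had an unadjusted p under 0.05. Fam155a (log2 fold change −0.56) was called lower in 2 of the 10 alternatives: the gene length offset and the fit without controls 1 and 4. The edgeR fit without control 1 also called it (adjusted p = 0.0471). Nalcn, Unc79 and Unc80 were called in no alternative.

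**Figure D5:**
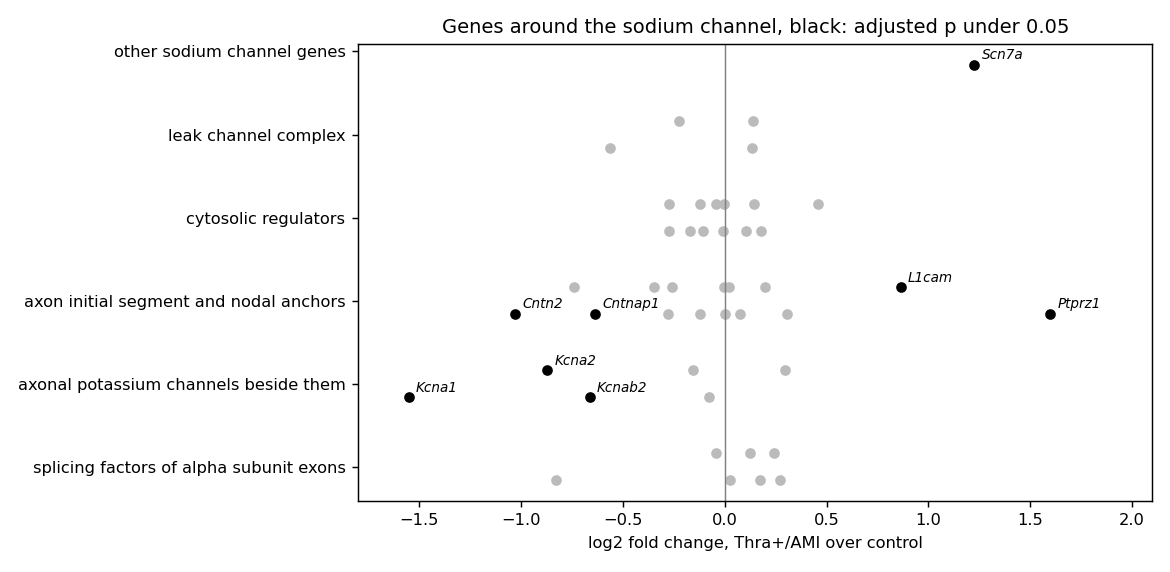
Log2 fold change of mutant over control for tested genes of the partner lists that are reported, grouped by list, in black and named where the edgeR adjusted p is under 0.05 and in grey otherwise. The 3 called potassium channel genes and Cntn2 and Cntnap1 lie below 0, and L1cam, Ptprz1 and Scn7a above it.

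Scn1a, Scn2a, Scn3a, Scn9a and Scn7a share a cluster on chromosome 2. Over 1328 kb it holds 19 annotated genes, of which 9 lie wholly inside others and were at 0, and 9 were tested. Of these, 4 were called, where 9.42% of all tested genes were: Scn3a, Scn7a, Galnt3 and Gm13629. Galnt3, a glycosyltransferase gene between the channels, rose at low level, from 2.93 ± 0.85 CPM (SD, n = 4) to 8.18 ± 1.35 CPM (SD, n = 3; log2 fold change 1.48, SE 0.26, adjusted p = 0.0035). Gm13629, which starts 40 bases beyond the start of Scn1a on the opposite strand and runs on into Scn9a, held 531, 656, 660 and 1040 counts in the controls and 306, 267 and 281 in the mutants (log2 fold change −1.27, SE 0.21, adjusted p = 0.00251). Control 4 stood above the other controls, and the groups did not overlap. Since 63.1% of the Gm13629 span lies inside other genes, its counts appear to come from the remaining 38.8 kb, between Scn1a and Scn9a. The strand of these reads is not known. Neighbours in this cluster therefore moved in both directions, with Scn3a up, Gm13629 down, and Csrnp3 (0.25) and Ttc21b (0.05) not called. Of exact 75-base words in exons, 1.88% of Scn1a, 2.80% of Scn2a, 3.85% of Scn3a and 2.78% of Scn9a occur in another cluster gene. For Scn8a, Scn3b and Scn4b there were none. Matches with mismatches and reads in introns were not covered, so the share of ambiguous reads is not known.

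The genes whose profile over the 7 libraries lay nearest to each called gene were found by the root mean square difference of centred log2 CPM among 11785 genes of at least 5 CPM. For Scn3a they were Chl1 (0.067), L1cam (0.069) and Etnk2 (0.070), where the median gene lay at 0.468. For Scn3b they were Sst (0.077), Slc27a3 (0.090) and Efnb3 (0.102), with a median of 0.522. For Scn4b, whose counts are low, even the nearest lay farther off: Ttc39aos1 (0.456), Col9a2 (0.469) and Flywch2 (0.473), with a median of 1.17. All of these nearest genes were themselves called, in the same direction as the gene they lay near. The measure takes in the difference between groups, so nearness does not show shared expression within a group, which was not tested.

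Some markers of GABAergic subtypes moved as well, where 4.78% of all tested genes were called lower and 4.63% higher. Pvalb, the marker of fast-spiking interneurons, fell from 40.9 ± 5.90 CPM (SD, n = 4) to 1.81 ± 0.68 CPM (SD, n = 3; log2 fold change −4.48, SE 0.23, adjusted p = 7.6e-07). Of 11 tested markers of parvalbumin neurons, 5 were lower (Pvalb, Syt2, Kcnc1, Kcnab3 and Akr1c18) and 1 higher (Lgi2), and the summed level of the list was 4603 to 7289 CPM in the controls and 5753 to 7004 CPM in the mutants. Most of this sum came from Erbb4 and Kcnc2, at 3304 and 1463 CPM on average in the controls, which were not called, so the sum shows little of the called markers. Cox6a2 of that list, a nested gene, was at 0. Of 8 somatostatin neuron markers, 3 were higher (Sst, Calb1 and Crhbp) and 1 lower (Hpse), with sums of 917 to 1087 CPM and 1466 to 1781 CPM. The general GABAergic markers summed to 2471 to 2778 CPM in the controls and 2443 to 2915 CPM in the mutants, with the nested genes Dlx1 and Dlx6 at 0. Of the VIP list, 3 of 6 tested were higher and 1 lower, and of the LAMP5 list 1 of 9 was higher and 3 lower. The part of these subtype markers in the changes of Scn3a, Scn3b and Scn4b was not tested.

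Markers of cells that the sort should leave out were present at low level. The 10 glutamatergic markers summed to 257 to 392 CPM in the controls and 236 to 298 CPM in the mutants, with 0 called by edgeR, DESeq2 or limma-voom and 0 at an unadjusted p under 0.05. With their mean log2 CPM in the model, the calls of Scn3a, Scn3b and Scn4b held. Of the oligodendrocyte markers, Mog was higher, and of the astrocyte markers Slc4a4 was lower, at list sums of 166 to 203 against 185 to 219 CPM and 358 to 518 against 301 to 346 CPM. Of the oligodendrocyte precursor, microglial and endothelial markers edgeR called 0, with 1, 2 and 0 at an unadjusted p under 0.05. DESeq2 and limma-voom each called 1 microglial marker.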

How the data were processed

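Nuclear RNA was sequenced after SMART-Seq v4 and Nextera XT preparation, per the labels' protocols. PCR copies were not marked by molecular identifiers. The deposited values are raw read counts per gene. Bowtie2 2.5.3 and the builds mm10 and GRCm38 are named in the submitters' processing notes, and the counting program, annotation and strand setting are not given in the sources used here. All gene identifiers matched GENCODE M21, whose coordinates were used. The labels give 1 cortex a library, so p-values measure the spread between animals.

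Counts were fitted in R 4.3.3 with edgeR 4.0.16 (TMM, filterByExpr, robust quasi-likelihood, two-sided), adjusted by Benjamini-Hochberg over all 16448 tested genes. The fit was also run on simulated counts, with the outcome not given here. Those counts held no trend with gene length, so that run could not check its effect. Columns of per-sample values left unused numbered 0. The mutant 10 table, a copy of that of mutant 7, was left out, and which of the 2 animals it measures is not known. The lowest total makes 1 CPM about 10.7 reads.

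The members and gene lists were chosen with earlier results of these data known. Named are the members, Thra, every called gene of the partner lists and loci, called markers, and the 3 nearest profiles of each called member, but for some genes of the lists that are not reported here. Other genes named (Pvalb, Fgf11, Ank3, Nfasc, Sptbn4, Kcnq3, Csrnp3, Ttc21b, and Gm10684 and nested genes at 0) were chosen after their values were seen. The same holds for Erbb4, Kcnc2, Scn4a, Scn10a, Scn11a and the leak channel genes named. Alternatives were other scalings, filters, tools, a gene length offset, a glutamatergic covariate and leaving out libraries. Leaving out controls 1 and 4 together, the level per own span and the level per coding length were chosen after seeing the data.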

Additional observations from a re-analysis of the deposited data

Results flagged for a closer look

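Of 20 group values examined for a library far from its group, 1 met the criterion, about what chance gives (1 in 20). Kcnab2, the accessory subunit of axonal potassium channels, measured 134.3 CPM in control 4, against 79.1, 81.2 and 87.4 CPM in the other controls. The gap made 0.85 of the range, above the 95% critical value of Dixon's test for 4 values.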

How the results depend on the processing

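Scn3a, Scn3b and Scn4b were called under all 10 alternatives and in all 7 fits that left out 1 library, and Scn2a and Scn9a in none. Members called higher numbered 2 throughout. Members called lower numbered 1, but 2 with no filter on low counts (Scn1a, adjusted p = 0.0445), and 3 (Scn1a and Scn8a added) with DESeq2, limma-voom with sample quality weights, the gene length offset, or without controls 1 and 4 together. Leaving out 1 library gave 1 to 3.

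Over all genes, calls rose from 1549 to 3134 with limma-voom (1562 lower, 1572 higher), 2753 with the length offset (1408 and 1345) and 2778 without controls 1 and 4 (1415 and 1363). Leaving out 1 library gave 734 (without mutant 7) to 2347 (without control 4), of which 374 to 1134 were lower and 360 to 1213 higher. No called gene among the 8 changed direction. Of genes not called, Scn9a changed sign around 0 (−0.07 to 0.11 over the fits without 1 library), as did Ank3 (−0.15 to 0.18) and Kcnq3 (−0.23 to 0.23).

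No paired analysis was possible because the groups share no replicate number. The low counts of Scn4b in the mutants, 15 to 49 a library, limit the precision of its fold change.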
